A study of Mus musculus with 8 samples.

Results

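NMuMG is an epithelial cell line from the mouse mammary gland. In the line deposited as its RREB1 knockout, 101 of the 18102 genes in the table were nearly silent although WT cells expressed them. A gene was taken when its mean normalised count in WT cells under SB505124 was at least 50 and when log2((WT + 1)/(KO + 1)) was above 4, a 16-fold ratio, under both treatments. Another 8 genes that met these thresholds were left out by symbol (solute carriers, keratins, collagens and similar families, and 3 single genes). The 101 genes were thus chosen by their normalised counts in these same libraries, and their difference between genotypes is given below as a description, with no test. All 101 are annotated as protein-coding, and they lie on all 20 chromosomes that hold tested genes, the autosomes and X.

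RNA was sequenced from 4 groups of 2 libraries. KO cells received either SB505124 (2.5 µM, 6 h) or TGFβ (100 pM, 1.5 h), and WT cells received the same, each after 6 h without serum. SB505124 blocks the kinase of the TGFβ type I receptor, so its libraries stand for cells without receptor signalling, not for untreated cells. The treatments also differ in length, so effects of TGFβ, of the inhibitor and of exposure time cannot be told apart. Rises, falls and responses with TGFβ below are relative to SB505124. All groups are NMuMG cells grown with insulin and serum before starvation. All KO columns carry the code KO1, taken here to mean 1 clone, so a difference caused by the edit and one particular to that clone cannot be told apart. Whether both replicates of a group were grown as separate cultures is not in the labels, so p-values measure the spread between these libraries, which may be technical.

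RREB1 is a zinc finger protein that binds RAS-responsive DNA elements and works with SMAD proteins in TGFβ-treated epithelial cells. In a silent gene the promoter yields no stable transcript; in mammalian cells such promoters often carry DNA methylation, Polycomb marks or H3K9 methylation, or lack their activating factors. Only RNA was measured here, and the genes are called silent below as a short name for the ratio thresholds, since some kept reads in KO-labelled cells. Eno3, Flnc and Xirp2 are best known from muscle, Nes from neural progenitors, and Syk and Blnk from blood cells.

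Library depth was 25144204 to 32143113 reads. Rreb1 itself was not lower in the libraries labelled KO: it averaged 1335 ± 11.3 normalised counts in KO-labelled and 1044 ± 15.4 in WT libraries under SB505124, and 2361 ± 169.6 in KO-labelled and 1864 ± 134 in WT libraries under TGFβ (SD, n = 2 each). A count over the whole gene cannot show an edit that does not remove the transcript, and the cells are called KO-labelled below. The luminal keratin genes Krt8, Krt18 and Krt19 and the E-cadherin gene Cdh1 had means between 13904 and 114414 in every group, whereas Epcam was at 0 in the KO-labelled groups and at 6.06 and 30.4 in the WT groups, and Esr1 was at or near 0. Summed over the 8 of 9 listed luminal markers in the table, levels were 185528 to 272033 in KO-labelled libraries and 172782 to 234458 in WT libraries. The summed levels of 5 leukocyte markers were 200.9 to 224 in KO-labelled and 157 to 173 in WT libraries. Fibroblast sums under SB505124 were 35.4 and 45.8 in KO-labelled and 126 and 131 in WT libraries. Under TGFβ they were 141 and 174 in KO-labelled and 172 and 165 in WT libraries. Endothelial sums were 4.32 to 15.4 in KO-labelled and 18.2 to 41.1 in WT libraries, adipocyte sums were 3.85 to 15.8 in KO-labelled and 11 to 16 in WT libraries, and basal sums were 68.9 to 93.3 in KO-labelled and 21.3 to 63.2 in WT libraries. Krt5, a basal keratin, averaged 69.4 in KO-labelled and 0.507 in WT cells under SB505124, whereas Krt14, its basal partner, was at 0 in KO-labelled and at 4.54 in WT cells under SB505124 and at 0 in KO-labelled and 42.0 in WT cells under TGFβ. Dcn, one of the fibroblast markers, is also one of the 101 genes, chosen for low counts in KO-labelled cells. Under SB505124 Dcn averaged 0.432 in KO-labelled and 90.1 in WT cells, whereas the fibroblast marker Pdgfra averaged 39.2 and 36.3. The lower fibroblast sums of KO-labelled cells under SB505124 thus come largely from Dcn. Col3a1 added 35.9 to the KO-labelled TGFβ sum of 174 and was at 0 in the other library of that group. The part of other cell types in the results was not tested, and in bulk RNA fewer cells of a type and less RNA per cell cannot be told apart.

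The promoters of 5 of the silent genes are shown, each as 250 bases before to 50 bases after the transcription start, from RefSeq (build GRCm38.p6), read 5′ to 3′ on the gene's strand with every CpG dinucleotide, the site of DNA methylation in mammals, in capitals. Eno3 is shown because it had the most reads in WT cells (chr11:70656926-70657225, plus strand, 3 CpG), and Sema4f because it had the largest rise with TGFβ in WT cells (chr6:82939720-82940019, minus strand, 7 CpG). Evc (chr5:37336832-37337131, minus strand, 16 CpG) and Evc2 (chr5:37338228-37338527, plus strand, 19 CpG) are neighbours read in opposite directions, and Jag2 (chr12:112929446-112929745, minus strand, 63 CpG) had the most CpG of the silent genes with a sequence.
Eno3: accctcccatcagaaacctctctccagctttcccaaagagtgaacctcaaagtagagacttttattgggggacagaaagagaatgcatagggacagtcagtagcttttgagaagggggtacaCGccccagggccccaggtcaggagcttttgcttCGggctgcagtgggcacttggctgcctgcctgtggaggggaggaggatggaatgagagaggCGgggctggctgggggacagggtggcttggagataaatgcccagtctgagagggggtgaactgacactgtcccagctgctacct
Sema4f: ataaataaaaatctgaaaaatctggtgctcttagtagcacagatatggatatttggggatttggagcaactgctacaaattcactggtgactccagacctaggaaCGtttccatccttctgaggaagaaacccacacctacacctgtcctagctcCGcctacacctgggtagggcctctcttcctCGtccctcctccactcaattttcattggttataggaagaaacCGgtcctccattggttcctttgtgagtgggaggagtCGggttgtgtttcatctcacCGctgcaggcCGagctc
Evc: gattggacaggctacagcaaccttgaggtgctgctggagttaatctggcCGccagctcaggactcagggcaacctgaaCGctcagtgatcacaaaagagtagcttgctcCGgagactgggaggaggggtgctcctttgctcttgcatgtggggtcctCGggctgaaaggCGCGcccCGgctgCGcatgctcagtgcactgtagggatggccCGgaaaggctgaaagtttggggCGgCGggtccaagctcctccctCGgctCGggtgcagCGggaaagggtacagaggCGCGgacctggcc
Evc2: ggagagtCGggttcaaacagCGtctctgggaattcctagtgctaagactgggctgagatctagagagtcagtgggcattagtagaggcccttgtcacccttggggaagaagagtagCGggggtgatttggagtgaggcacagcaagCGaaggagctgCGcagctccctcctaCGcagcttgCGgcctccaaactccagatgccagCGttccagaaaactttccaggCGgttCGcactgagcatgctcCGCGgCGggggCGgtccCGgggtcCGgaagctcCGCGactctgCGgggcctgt
Jag2: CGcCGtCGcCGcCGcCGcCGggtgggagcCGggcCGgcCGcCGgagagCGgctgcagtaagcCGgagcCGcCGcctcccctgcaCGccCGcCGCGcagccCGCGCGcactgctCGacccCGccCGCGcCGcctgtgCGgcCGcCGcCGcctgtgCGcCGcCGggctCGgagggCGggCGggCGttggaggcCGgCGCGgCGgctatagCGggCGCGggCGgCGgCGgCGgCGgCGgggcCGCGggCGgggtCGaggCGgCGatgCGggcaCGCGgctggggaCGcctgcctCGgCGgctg
Genes with few and with many promoter CpG were thus both present. A promoter sequence was matched for 78 of the 101 genes, with 0 CpG (Bcl2l15) to 63 CpG; this is 77.2% of them, under the 80% needed to compare the group with other genes, so that comparison is void.

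Under SB505124 the 101 genes had a median level of 2.23 normalised counts in KO-labelled cells and 258 in WT cells, and under TGFβ of 2.95 in KO-labelled cells and 319 in WT cells. The level in KO-labelled cells was a median 0.869% of the WT level under SB505124 and 0.864% under TGFβ, and at most 5.86% under either. Each gene was lower in all 4 KO-labelled libraries than in all 4 WT libraries, a separation that follows largely from the choice of genes. Together the 101 genes took 0.00601% to 0.00865% of the reads of a KO-labelled library and 0.402% to 0.455% of a WT library. All 101 passed the filter on low values used for the tests below. For 70 of them the mean was below 10 normalised counts in both KO-labelled groups, so these passed only through their WT libraries. With single libraries in place of group means, 93 to 99 of the 101 still met both ratio thresholds, depending on which replicates were set against each other.

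**Figure D1:**
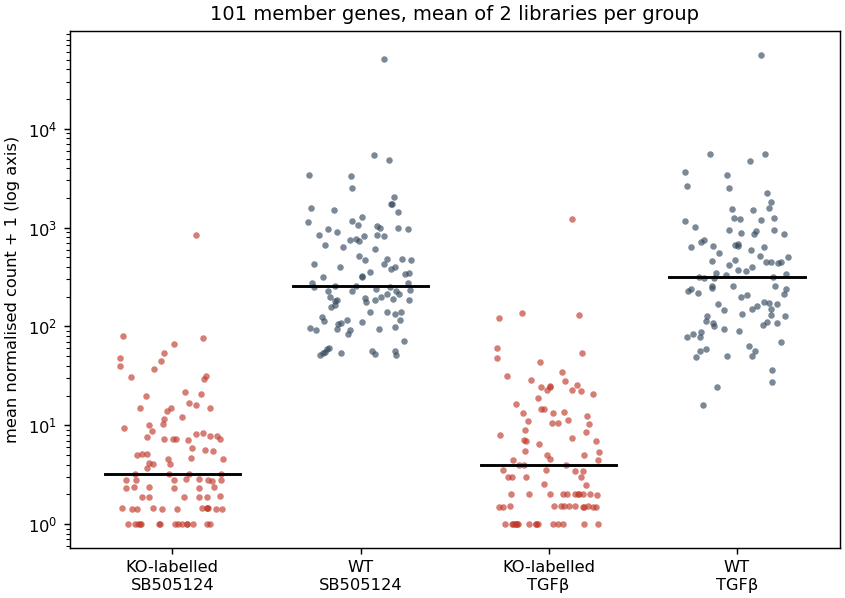
Mean normalised count + 1 (log axis, 2 libraries per group) of each of the 101 genes in the 4 groups, with a bar at the median. KO-labelled medians are 2.23 and 2.95 counts and WT medians 258 and 319; the single high KO-labelled point is Eno3.

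The edges of the rule were gradual. Just inside the floor on the WT level were Fam73a (current symbol Miga1), Nov (Ccn3) and Pcdh19 with WT means of 50.9, 50.9 and 51.9 normalised counts, and just outside were Lrig3, Chst7 and Siglec15 with 47.9, 44.3 and 41.9. Lrig3 had no read in KO-labelled libraries and missed only the floor. Just inside the ratio under SB505124 were Tlr4, Casc4 and Inhbb with log2 ratios of 4.06, 4.10 and 4.26, and just outside Ptpn22, Rgs2 and Scd3 with 3.98, 3.95 and 3.94. Under TGFβ the nearest inside were Sardh, Thbd and Fam73a with 4.01, 4.02 and 4.04, and the nearest outside Srgap3, Tceal8 and Igfbp4 with 3.97, 3.87 and 3.87.

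The depth of silence differed among the genes. No read was found in 15 genes in the KO-labelled SB505124 libraries and in 16 in the KO-labelled TGFβ libraries, and 1 to 3 reads in 24 and 26. Dcp1b, Gramd1a, Irx2, Lmo1, Lrrk2, Pcdh19, Sult4a1, Thbd and Wfdc2 had no read in any of the 4 KO-labelled libraries. Folds are ratios of reads summed over the group and divided by its summed size factors. Taking 3 reads over the group as the limit of a count of 0, these 9 were at least 38.6-fold (Pcdh19) to at least 169-fold (Lmo1) lower in KO-labelled cells under SB505124. At the other end, 31 genes kept a mean of at least 10 normalised counts in KO-labelled cells under one treatment or both. Such limits and the intervals below cover counting error only.

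Eno3 encodes the muscle form of enolase, a glycolytic enzyme (chr11:70657202-70662513, GRCm38, plus strand). It had 843 and 840.4 normalised counts in KO-labelled cells and 49833 and 51044 in WT cells under SB505124, and 1187 and 1241 in KO-labelled and 55960.1 and 56334 in WT cells under TGFβ. It was 59.9-fold lower in KO-labelled cells under SB505124 and 46.3-fold lower under TGFβ, and it was the only one of the 101 above 200 counts in KO-labelled cells. Per kilobase of exon its SB505124 level was 484 in KO-labelled and 29004 in WT cells, the highest of the 101 in both. Eno2, the nerve form, had means of 5.35 in KO-labelled and 51.9 in WT cells under SB505124, a limma log2 difference of -3.07 (adjusted p = 1.62e-06). The general enolase is split in the annotation between Eno1, at 12.9 in KO-labelled and 17.1 in WT cells, and its near-identical copy Eno1b, at 2179 ± 440 in KO-labelled and 4451 ± 210.1 in WT cells (SD, n = 2 each), so both values are uncertain; Eno1b was added after its values were seen. Per kilobase, Eno1b was counted at 2372 in WT cells, below Eno3, and at 1161 in KO-labelled cells, above Eno3. Because the general form is split over 2 uncertain values, its rank against Eno3 cannot be told from these counts.

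Other enzymes among the 101 serve lipid, nucleotide and amino acid metabolism. Isyna1, which makes inositol phosphate from glucose phosphate, had 27.0 and 34.5 normalised counts in KO-labelled and 1984 and 2133 in WT cells under SB505124. Gde1, a glycerophosphodiester phosphodiesterase, had no read in KO-labelled cells and 849 and 801 in WT cells under SB505124, at least 614-fold lower. Under TGFβ it had 7.70 and 11.3 in KO-labelled cells (19 reads) and 1259 and 1199 in WT cells. Ak4, a mitochondrial adenylate kinase, Cnp, the phosphodiesterase of myelin, and Nmnat2, the NAD-synthesising enzyme that keeps axons alive, were 139-fold, 52.5-fold and 29.0-fold lower in KO-labelled cells under SB505124. All 14 enzymes lay between 0 and 3.47% of their WT level.

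Actin-binding and cytoskeletal genes of muscle and nerve were among the 101. Flnc, the filamin that cross-links actin in muscle, had 27.0 and 14.7 normalised counts in KO-labelled and 5734 and 5228 in WT cells under SB505124, 266-fold lower. Nes encodes nestin, an intermediate filament of neural progenitors, and had 37.2 and 39.7 in KO-labelled and 3519 and 3238 in WT cells. Xirp2, an actin-binding protein of striated muscle, had 10.2 and 21.6 in KO-labelled and 1120.1 and 956 in WT cells. That the groups lie far apart in these genes follows from the ratio thresholds that chose them. Myh10, the heavy chain of non-muscle myosin IIB, was 99.5-fold lower in KO-labelled cells under SB505124, and Wtip, a LIM protein of cell junctions, 114-fold. Fscn1, which bundles actin in protrusions, had 0 and 1.73 in KO-labelled and 67.9 and 44.1 in WT cells, and Arhgef19 and Srgap1, regulators of small GTPases, had 1 read each in the KO-labelled SB505124 libraries.

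Among matrix and secreted proteins, Serpinh1, the collagen chaperone HSP47, had 17.7 and 21.6 normalised counts in KO-labelled and 4912 and 4722 in WT cells under SB505124, and 19.3 and 29.7 in KO-labelled and 6148 and 4939.8 in WT cells under TGFβ. It was 244-fold and 229-fold lower in KO-labelled cells. Tnxb (tenascin X) had 40.0 and 65.6 in KO-labelled and 1239.7 and 1088 in WT cells under SB505124. Trf (transferrin) had 26.1 and 33.7 in KO-labelled and 801 and 886 in WT cells, and both thus kept a larger share than Serpinh1. Dcn (decorin), Nov, Gpc4 (a glypican) and Wfdc2 had at most 1 read over the KO-labelled SB505124 libraries.

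Ligand genes included Jag2, a NOTCH ligand, with 4.65 and 5.18 normalised counts in KO-labelled and 1048 and 926 in WT cells under SB505124. Inhbb, the activin B subunit, had 53.0 and 76.9 in KO-labelled and 1271 and 1263 in WT cells, 1 of the smaller ratios at 19.4-fold. Sema4f, a membrane semaphorin, had 17.7 and 19.9 in KO-labelled and 1549 and 1451 in WT cells. Receptor genes were Ptk7 and Fzd8 of the WNT pathway, Ephb3, Npr2 (the receptor of C-type natriuretic peptide), Ramp3, Thbd (thrombomodulin), Apobr, Plxdc2 and Gpr64 (current symbol Adgrg2). Apobr, a receptor for apolipoprotein B, had 9.31 and 12.1 in KO-labelled and 2588 and 2434 in WT cells, and Ephb3 had 1 read in the KO-labelled SB505124 libraries against 187 and 198 counts in WT cells. Evc and Evc2, which form the ciliary complex that passes on Hedgehog signals, were low together. Evc had 1.86 and 6.05 in KO-labelled and 667 and 649.8 in WT cells, and Evc2 had 0 and 0.864 in KO-labelled and 246 and 214 in WT cells.

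Genes of signalling inside the cell followed. Adcy1, an adenylyl cyclase of neurons, had 2 reads over the KO-labelled SB505124 libraries and 978 and 963 normalised counts in WT cells, 1083-fold lower (exact 95% interval 299.5 to 8952). Gnb4, a G protein β subunit, was 318-fold lower (interval 108 to 1544). Syk, Blnk and Plcg2, the kinase, adaptor and phospholipase that act in turn below the B cell receptor, were 34.5-fold, 355-fold and 163-fold lower in KO-labelled cells under SB505124. Their WT means were 108 for Syk, 477 for Blnk and 512 for Plcg2. The leukocyte marker Ptprc was at most 10.7 in any group mean. Tlr4, the endotoxin receptor, kept the largest share under SB505124, with 45.6 and 42.3 in KO-labelled and 762 and 737 in WT cells.

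The 6 DNA-binding and chromatin regulators, Foxd1, Lmo1, Tbx15, Sfmbt2, Pax3 and Irx2, had WT means of 53.4 to 251 normalised counts under SB505124 and at most 4.09 in KO-labelled cells. Lmo1, a LIM-only cofactor, had no read in KO-labelled cells and 214 and 239 in WT cells. Foxd1 had 1 read in KO-labelled cells and 240.2 and 261 normalised counts in WT cells, and Pax3, a factor of neural crest and muscle precursors, had 5.58 and 2.59 in KO-labelled and 162 and 151 in WT cells. Among channels and calcium regulators, Micu2, a regulator of calcium entry into mitochondria, had 1.86 and 2.59 in KO-labelled and 1029.8 and 1109 in WT cells. Ryr2, the calcium release channel of the heart, had no read in KO-labelled SB505124 libraries and 127 and 141 in WT ones. Among membrane proteins, Atp9a, a lipid flippase, had 7.45 and 11.2 in KO-labelled and 3423 and 3291 in WT cells. Mal2, which carries proteins to the apical membrane, had no read in KO-labelled and 972 and 1009 counts in WT cells, at least 737-fold lower. Ckap4 and the BCL2-like gene Bcl2l15 kept more reads. Ckap4 had 81.9 and 70.0 in KO-labelled and 1771 and 1683 in WT cells, and Bcl2l15 had 79.1 and 78.6 in KO-labelled and 1578 and 1571 in WT cells, that is 22.8-fold lower for Ckap4 and 5.01% of the WT level for Bcl2l15.

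**Figure D2:**
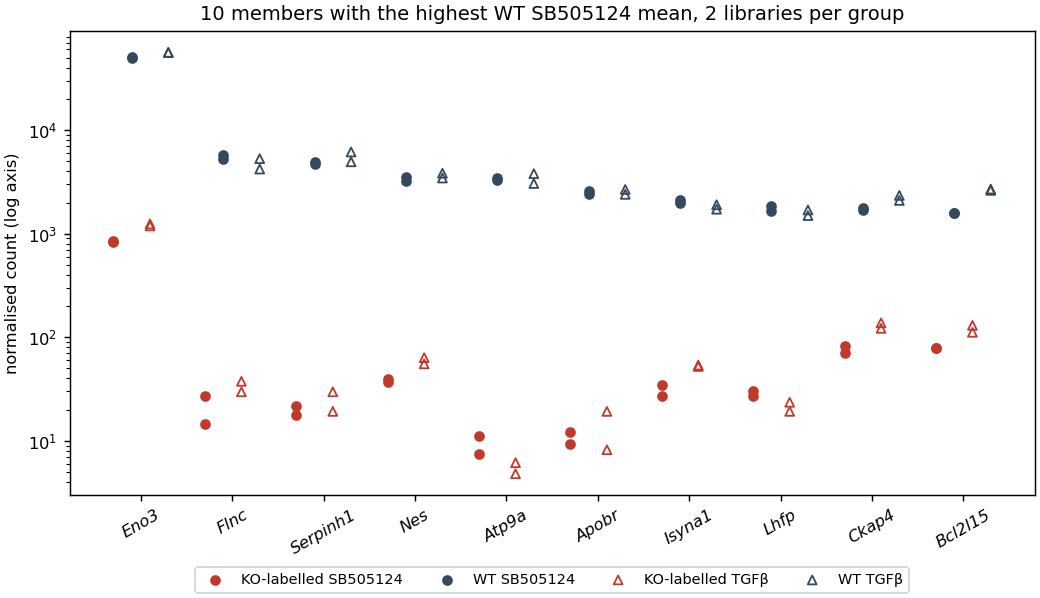
Normalised counts (log axis) of the 10 silent genes with the highest WT SB505124 mean, 1 point per library, circles for SB505124 and triangles for TGFβ. Ratios of WT to KO-labelled cells under SB505124, from summed reads over summed size factors, reach 357-fold (Atp9a) and are 22.8-fold for Ckap4, and the 2 libraries of a group lie close together beside that gap.

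Some of these genes differed between TGFβ and SB505124 in WT cells. By limma over all 8 libraries, 11 of the 101 were higher and 6 lower with TGFβ than with SB505124 (16.8%), where 43.3% of the 12498 tested genes were called (20.2% higher, 23.2% lower). That fit pools each gene's spread over genotypes and here includes KO-labelled values near 0. On the WT libraries alone, 28 of the 101 were higher and 19 lower, beside 41.7% of all genes called (19.7% higher, 22.0% lower). edgeR's quasi-likelihood test on reads recovered from the table called 29 higher and 17 lower, beside 44.4% (22.4% higher, 22.0% lower). The share called among the silent genes was thus below the background in the pooled fit and near it in the other fits. With a change of at least 2-fold added to the pooled call, 5 were higher and 4 lower, beside 3.64% and 2.36% of all tested genes. The TGFβ libraries did not overlap the SB505124 libraries in 39 genes that were higher and 35 that were lower, beside 33.1% and 36.7% of all tested genes. The median TGFβ response was 0.02 on the log2 scale for the 101 genes and -0.01 for all tested genes. Levels from both sides of this contrast entered the choice of genes, through the floor and the ratios. Without WT SB505124 replicate 1 the pooled fit called 10 genes in place of 17, and without replicate 2 it called 9.

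Sema4f rose most, with 5958 and 5169.5 normalised counts in WT cells with TGFβ and 1549 and 1451 with SB505124, a limma difference of 1.89 ± 0.11 (log2, SE), adjusted p = 2.02e-10. Npr2 had 325 and 288 with TGFβ and 112 and 96.1 with SB505124, a difference of 1.55 ± 0.28 (log2, SE), adjusted p = 0.000237. The cytokine gene Il24 and the chemokine gene Cxcl16 were higher with TGFβ by 1.02 (adjusted p = 0.000406) and 1.00 (adjusted p = 0.00287), and Havcr2, which encodes the immune checkpoint receptor TIM-3, by 0.85 (adjusted p = 0.00913), all by limma. Arhgef19, Btbd11, Pmp22, Bcl2l15, Gde1 and Ckap4 rose by 1.18, 0.92, 0.87, 0.75, 0.57 and 0.36 on the log2 scale. Among genes that fell, Thbd had 18.9 and 11.4 with TGFβ and 57.8 and 58.1 with SB505124, a limma difference of -1.90 ± 0.59 (log2, SE), adjusted p = 0.0144. Kcnk5, a potassium channel, had 123 and 98.3 with TGFβ and 400.4 and 362 with SB505124, a difference of -1.78 ± 0.41 (log2, SE), adjusted p = 0.00177. Tlr4 was lower with TGFβ by limma (-1.19, adjusted p = 8.82e-06), as were Inhbb (-0.88, adjusted p = 0.000356), Slitrk5 (-1.46, adjusted p = 0.0296) and Dpysl5 (-0.87, adjusted p = 0.049). These 17 genes were called in the same direction by all 3 fits. Over the wider set of alternative fits Sema4f, Npr2, Il24, Btbd11, Bcl2l15, Kcnk5, Tlr4 and Inhbb kept their call throughout. Dpysl5, Gde1, Arhgef19, Slitrk5, Pmp22, Thbd, Ckap4, Havcr2 and Cxcl16 each lost it in at least 1 alternative.

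In KO-labelled cells the few remaining reads limit what can be seen. The pooled limma fit called 24 of the 101 higher and 7 lower with TGFβ, beside 15.1% and 15.8% of all tested genes, but on the KO-labelled libraries alone 10 were higher and 2 lower (background 12.4% and 11.9%), and edgeR called 10 and 3 (background 32.2% in either direction). These shares are not like for like, since 45 of the 101 had under 10 reads over the 4 KO-labelled libraries. For 70 of the 101 the filter on low values was passed only through the WT libraries. The 11 genes called by all 3 fits were Gde1, Sema4f, Il24, Pmp22, Rhbdl2, Isyna1, Ckap4, Bcl2l15 and Eno3, which were higher, and Inhbb and Tlr4, which were lower. Of these, Gde1 had a mean below 10 normalised counts in both KO-labelled groups, so it was tested only because of its WT level. Sema4f had 137 and 134 normalised counts with TGFβ and 17.7 and 19.9 with SB505124 in KO-labelled cells, a limma difference of 2.79 ± 0.11 (log2, SE), adjusted p = 5.01e-13. Il24 had 23.1 and 23.6 with TGFβ and 7.45 and 5.18 with SB505124, and Tlr4 had 19.3 and 16.4 with TGFβ and 45.6 and 42.3 with SB505124. Eno3 had 1187 and 1241 with TGFβ and 843 and 840.4 with SB505124 (limma, log2 0.53, adjusted p = 1.76e-05), whereas in WT cells its difference was 0.15 (adjusted p = 0.101).

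**Figure D3:**
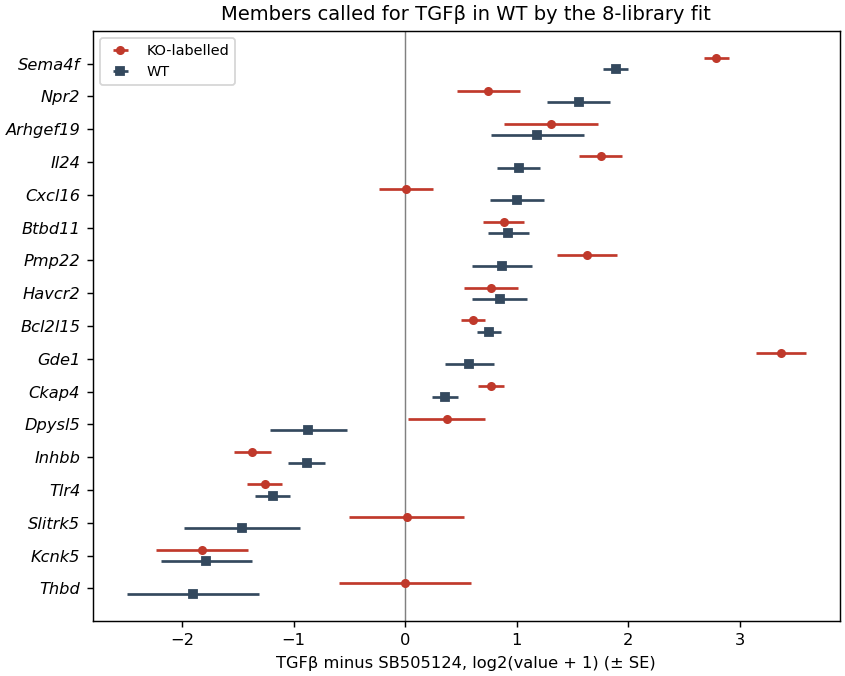
TGFβ minus SB505124 differences on the log2(value + 1) scale with the model's SE, in KO-labelled cells (circles) and WT cells (squares), for the 17 silent genes called in WT cells. Sema4f, at 2.79 in KO-labelled and 1.89 in WT cells, and Gde1 lie further right in KO-labelled cells.

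The response differed between genotypes in 3 of the 101 genes by limma, all higher in KO-labelled cells, beside 2.25% of all tested genes called higher and 2.82% called in either direction; both ratios behind this difference also entered the choice of genes. For Sema4f the response in KO-labelled minus that in WT cells was 0.90 ± 0.16 (log2, SE, adjusted p = 0.00295) by limma, and for Isyna1 0.96 ± 0.19 (log2, SE, adjusted p = 0.00561). Isyna1 had 53.9 and 52.3 normalised counts with TGFβ and 27.0 and 34.5 with SB505124 in KO-labelled cells, against 1901 and 1722 with TGFβ and 1984 and 2133 with SB505124 in WT cells. For Gde1 the limma difference of 2.80 ± 0.31 (log2, SE, adjusted p = 4.70e-05) rests on 19 reads with TGFβ and none with SB505124 in KO-labelled cells, and its size depends on the value added before the log. Gde1 also passed the filter on low values only through its WT libraries. The other 98 were not called, which does not show that they respond alike.

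Most neighbouring genes were not called lower, but the share called lower was above that of all tested genes. The nearest tested gene on each side of each of the 101 gave 192 distinct genes that are not among them, at a median gap of 51380.5 bases. Under SB505124, 70 of these were lower in KO-labelled cells by limma (36.5%, with 27.7% of all tested genes called lower) and 56 were higher (29.2%, with 29.2% of all tested genes). Under TGFβ 75 were lower (39.1%, background 30.2%) and 63 higher (32.8%, background 32.7%). At least 2-fold lower under SB505124 were 24 (12.5%, background 8.33%) and at least 2-fold higher 11 (background 6.71%). Under TGFβ 23 of the 192 were at least 2-fold lower (background 8.38%) and 13 higher (background 8.07%). The median difference of the neighbours was -0.04 on the log2 scale, beside 0.0091 for all tested genes. Under SB505124, neither flanking gene was at least 2-fold lower for 70 of the 101 silent genes, and for 42 neither was called lower at all. The same count was not made around other genes, so these 2 numbers have no background and do not show that neighbours were spared.

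**Figure D4:**
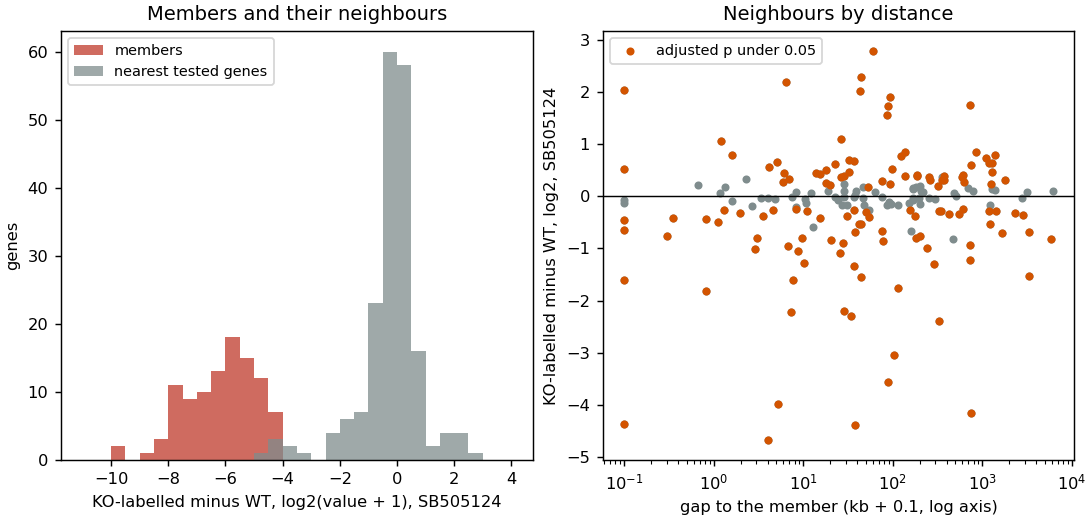
Left, log2(value + 1) difference between KO-labelled and WT cells under SB505124 for the 101 silent genes and their 192 nearest tested genes. Right, the neighbours' differences against the gap to the silent gene in kilobases (log axis), orange where limma's adjusted p is under 0.05 and grey otherwise; 70 were lower and 56 higher.

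The tested genes on both sides of Eno3, which itself kept reads in KO-labelled cells, were not called under SB505124. Pfn1, the profilin gene 2557 bases away, had 22164 and 22178 normalised counts in KO-labelled and 24354 and 26296 in WT cells under SB505124, a limma difference of -0.19 ± 0.09 (log2, SE, adjusted p = 0.0787), and under TGFβ it was lower in KO-labelled cells by limma (-0.43, adjusted p = 0.000368). Spag7, 1257 bases away on the other side, had 1948 and 1957 in KO-labelled and 1666 and 1768 in WT cells, a difference of 0.19 ± 0.08 (log2, SE, adjusted p = 0.0613). Beyond Flnc, Ccdc136 was higher in KO-labelled cells, by 2.19 ± 0.12 (log2, SE, adjusted p = 1.15e-11) with limma at a gap of 6261 bases. In the same direction as the silent gene, Ptpn22, a phosphatase of lymphocyte signalling 5176 bases from Bcl2l15, had means of 21.8 in KO-labelled and 359 in WT cells, and it missed the ratio threshold by little. Fxyd5, a regulator of the sodium pump near Gramd1a, had 338 and 389.5 in KO-labelled and 4415 and 4205 in WT cells, a limma difference of -3.57 ± 0.09 (log2, SE, adjusted p = 1.83e-16). Among the other neighbours with the smallest p, the log2 differences by limma were negative for Tprgl (-1.28, adjusted p = 2.71e-10), Epha2 (-1.55, adjusted p = 2.96e-10) and Cln3 (-1.60, adjusted p = 5.78e-10). They were positive for Nuak1 (1.55, adjusted p = 1.81e-10), Stk39 (1.74, adjusted p = 2.54e-10) and Glyat (2.28, adjusted p = 7.55e-10).

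Of these neighbours 8 overlap a silent gene, 7 of them on the opposite strand, and the library kit does not mark the strand. Reads of Cln3 and Apobr, and of Zmynd15 and Cxcl16, therefore cannot be told apart where they overlap. The silent genes formed 5 adjacent pairs in the order of tested genes, namely Ramp3 and Adcy1 on chromosome 11, Mal2 and Nov on 15, Xirp2 and B3galt1 on 2, Evc and Evc2 on 5, and Gramd1a and Wtip on 7. Evc (chr5:37289098-37336894, GRCm38) and Evc2 (chr5:37338499-37425055) face away from each other with 1604 bases between their starts, and the promoters printed above lie at the ends of that interval. The tested genes that flank this pair, Wfs1 and Stx18, differed by -0.06 (adjusted p = 0.691) and -0.25 (adjusted p = 0.0468) with limma. The other pairs were 39256 to 2953646 bases apart. Beside them, Igfbp3 next to Adcy1 was lower by limma (-0.89, adjusted p = 1.28e-08) and Taf2 next to Nov was higher (0.32, adjusted p = 0.00402), while Uba2 next to Wtip differed by -0.02 (adjusted p = 0.878).

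Relatives of the silent genes, 46 genes of the same families, were read to see whether a close copy was expressed; 44 could be tested. Under SB505124, 12 were higher and 18 lower in KO-labelled cells by limma (68.2%, with 56.9% of all tested genes called), and under TGFβ 14 were higher and 16 lower (68.2%, background 62.9%). The median difference was -0.06 on the log2 scale under SB505124. Flna had means of 68191 normalised counts in KO-labelled and 79681 in WT cells and was not called (-0.22, adjusted p = 0.0818). Myh9, the other main non-muscle myosin, had 34410 in KO-labelled and 35584 in WT cells under SB505124 (-0.05, adjusted p = 0.697), and under TGFβ it was higher in KO-labelled cells, at 48494 against 35908 in WT cells (0.43, adjusted p = 0.0015, limma). Atp9b (-0.08, adjusted p = 0.476) was not called by limma.

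Some relatives were lower along with the silent gene of their family. The listed glypicans Gpc1 (-2.21, adjusted p = 1.25e-12) and Gpc6 (-1.80, adjusted p = 1.58e-10) were lower in KO-labelled cells under SB505124 by limma, as were the Pmp22 relatives Emp1 (-1.20, adjusted p = 1.61e-09), Emp2 (-1.21, adjusted p = 3.40e-10) and Emp3 (-1.61, adjusted p = 6.60e-12). Mal, the relative of Mal2, had no read in KO-labelled cells and means of 33.3 and 172 in WT cells under SB505124 and TGFβ. Others were higher in KO-labelled cells by limma: Limd1, like Wtip a LIM protein of the Ajuba family (0.88, adjusted p = 1.65e-08), Sntb2, a syntrophin (0.81, adjusted p = 4.36e-06), and Adcy9, an adenylyl cyclase (0.78, adjusted p = 1.18e-06). Ajuba itself was lower (-0.90, adjusted p = 7.71e-09). Jag1, the second Jagged ligand, was higher in KO-labelled cells by limma under SB505124 (0.25, adjusted p = 0.0135) and TGFβ (0.85, adjusted p = 5.02e-08).

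**Figure D5:**
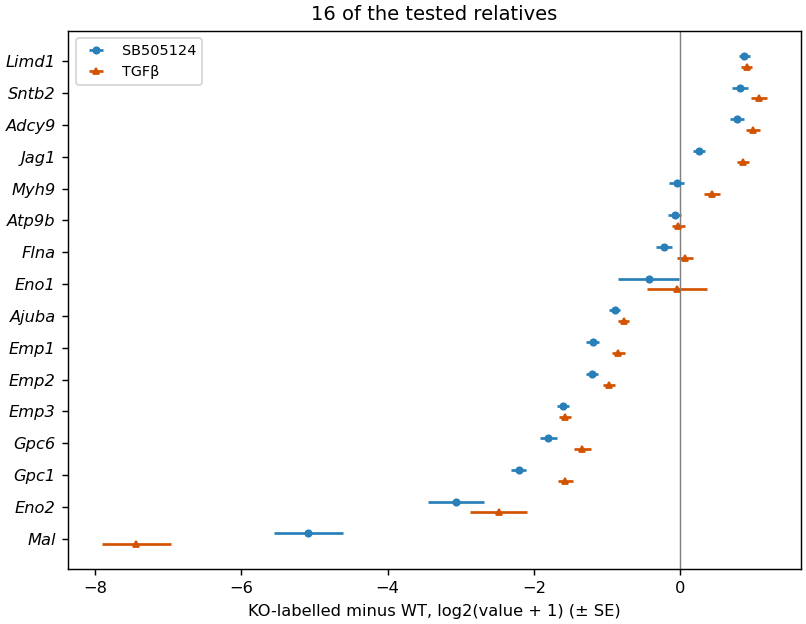
KO-labelled minus WT difference on the log2(value + 1) scale with the model's SE for 16 of the 44 tested relatives, those described by name, under SB505124 (circles) and TGFβ (triangles). Mal, at -5.09 under SB505124, lies furthest to the left, and Limd1, at 0.88, lies right of 0.

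Genes that set, read or remove silencing marks were listed separately, called silencing genes for short. They were DNA methyltransferases and TET enzymes, Polycomb subunits, Kdm6a and Kdm6b, H3K9 methyltransferases, heterochromatin proteins, histone deacetylases and methyl-DNA binding proteins. The TET and Kdm6 genes oppose silencing, so the counts below mix both kinds. Tet2 and Kdm6a are among those called higher under SB505124. Of 40 listed genes 36 were tested, and in KO-labelled cells 9 were higher and 3 lower under SB505124 by limma (33.3%, with 56.9% of all tested genes called) and 13 higher and 5 lower under TGFβ (50%, background 62.9%). Dnmt3b, a de novo DNA methyltransferase, had 7.45 and 11.2 normalised counts in KO-labelled and 39.5 and 40.1 in WT cells under SB505124, a limma difference of -2.01 (adjusted p = 2.13e-05). Hdac1, a histone deacetylase, was lower as well (-0.57, adjusted p = 6.06e-06). Higher in KO-labelled cells were Kdm6a, which removes the Polycomb mark (0.64, adjusted p = 4.89e-06), and the Polycomb genes Bmi1 (0.50, adjusted p = 9.08e-05), Jarid2 (0.48, adjusted p = 0.00114), Rnf2 (0.39, adjusted p = 0.00146) and Ezh2 (0.32, adjusted p = 0.00238). The maintenance methyltransferase gene Dnmt1 (-0.18, adjusted p = 0.0625) and its partner Uhrf1 (-0.15, adjusted p = 0.106) were not called by limma. Dnmt3a was not called under SB505124 (-0.08, adjusted p = 0.462) and was higher under TGFβ (0.55, adjusted p = 2.97e-05, limma). These are transcript levels, and neither DNA methylation nor histone marks were measured here.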

How the data were processed

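RNA sequencing was read in 8 libraries. For each gene and library the authors deposited a signal value, a normalised count made by dividing reads by a size factor. The tools named are HTSeq 0.6.1p1, DESeq2 3.4 and FastQC 0.11.5, with mm10 as the build, per the submitters' processing notes. No aligner is given in the sources used here. The kit was TruSeq RNA v2 per the labels; it keeps no strand. In each library 100% of values were whole multiples of 1 step within 0.01, so reads were recovered (25144204 to 32143113 per library).

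The 101 genes, the lists and the tests were chosen with earlier results of these data known. Of 18102 genes, 12498 with a mean of at least 10 were tested with limma 3.58.1 (R 4.3.3) on log2(value + 1), with a variance trend and 4 group means over all 8 libraries (4 residual degrees of freedom, 14.3 from the prior), and Benjamini-Hochberg adjustment over all tested genes at 0.05. Log2 differences are on this scale and understate low genes. Folds of silent genes are ratios of reads summed over a group's libraries, divided by the summed size factors; 0 reads count as a bound of 3 reads over the group, and 1 to 3 reads have an exact 95% interval. edgeR 4.0.16 on recovered reads called 5552 genes for TGFβ in WT, 4023 in KO-labelled cells, 418 for the difference, and 7233 and 7926 for KO-labelled against WT under SB505124 and TGFβ. DESeq2 1.42.0 was an alternative. The procedure was tried on simulated data with 1 fixed dispersion and with changes only in well-expressed genes. No simulated gene was high in WT and near 0 in KO cells, so the silent genes are not covered. Genes were named by a fixed rule: Rreb1; the 10 highest in WT cells; the largest TGFβ responses in WT; genes with a KO mean of at least 10 or no KO read; those beside each threshold; adjacent ones; and up to 10 neighbours and 6 silencing genes with the smallest p. Some genes that this rule or the lists name are not reported here. Role groups and relatives were assigned by hand, and genes named as examples of a role or list beyond that rule were chosen after their values were seen. Positions are from GENCODE M21 (GRCm38, the same assembly as mm10): 17186 symbols matched directly and 692 by an older symbol.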

Additional observations from a re-analysis of the deposited data

Results flagged for a closer look

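The TGFβ response differed between genotypes in 3 of the 101 genes, by limma's test of the difference itself, adjusted over all tested genes. Of all tested genes 2.82% were called, 2.25% of them higher in KO-labelled cells, so the count is near the background. Both ratios behind this difference also entered the choice of the 101 genes. For Gde1 the response in KO-labelled minus that in WT cells was 2.795 on the log2 scale (SE 0.31, limma adjusted p = 4.70e-05), with means of 9.49 ± 2.53 normalised counts with TGFβ and 0 with SB505124 in KO-labelled cells, against 1229 ± 42.4 and 825 ± 34.2 in WT cells (SD, n = 2 each). The Gde1 value is set by the 1 added before the log, since the KO-labelled SB505124 libraries held no read and the TGFβ ones 19; over the alternatives it was 0.55 to 5.67, and with 8 added it was not called (limma adjusted p = 0.194). For Isyna1 it was 0.9628 (SE 0.19, limma adjusted p = 0.00561), with 53.1 ± 1.15 and 30.8 ± 5.34 in KO-labelled cells, against 1812 ± 126 and 2058 ± 105 in WT cells. For Sema4f it was 0.9017 (SE 0.16, limma adjusted p = 0.00295), with 135 ± 1.70 and 18.8 ± 1.54 in KO-labelled cells, against 5564 ± 557 and 1499.9 ± 69.3 in WT cells. In each gene both KO-labelled TGFβ libraries were above both KO-labelled SB505124 libraries, as in 31.2% of all tested genes. Gde1 passed the filter on low values only through its WT libraries.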

How the results depend on the processing

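Counts of silent genes called for TGFβ depended on the fit. As background, the pooled limma fit called 5416 of the 12498 tested genes in WT cells, edgeR 5552 and DESeq2 4940. In KO-labelled cells these numbers were 3864, 4023 and 3497, and for the difference 352, 418 and 432. With the libraries of 1 genotype alone, limma called 5215 in WT and 3039 in KO-labelled cells. Where no such number is given, a count below shows only how the calls move. In WT cells 17 were called, but 35 with a value of 8 added before the log, 46 with edgeR, 33 with DESeq2 and 47 with WT libraries alone, the last chosen after seeing the data; leaving out 1 library at a time gave 9 to 22. In KO-labelled cells 31 were called, but 20 with 8 added, 18 without the filter on low values, 13 with edgeR, 13 with DESeq2 and 12 with KO-labelled libraries alone, and 24 to 33 without 1 library. The difference between genotypes was called in 3, but in 5 with 8 added and in 1 without the variance trend, and in 2 to 8 without 1 library: 6 without WT TGFβ replicate 1, 8 and 5 without KO SB505124 replicates 1 and 2, and 6 and 7 without KO TGFβ replicates 1 and 2. With 8 added, the Gde1 difference was 0.55 (limma adjusted p = 0.194), and with edgeR it was 5.67; Sema4f with 8 added was not called. Without the variance trend neither Isyna1 (limma adjusted p = 0.103) nor Sema4f (limma adjusted p = 0.0700) was called, and Isyna1 was not called without the filter or without WT SB505124 replicate 2; these are the highest p of each over the alternatives. Neighbours called lower stayed at 57 to 78 under SB505124 and 63 to 79 under TGFβ, and silencing genes called at 8 to 16 and 13 to 19. Of 2952 single-gene values under the alternatives none reversed and 219 were no longer called. Same-numbered libraries did not pair (correlations of deviations -0.199 to 0.198). With the replicate number as a block 15 silent genes were called for TGFβ in WT, 27 in KO-labelled cells and 4 for the difference. Of all tested genes the fit with this block called 5359, 3658 and 252. TMM scaling shifted libraries by at most 0.0244 on the log2 scale. Depth limits the silent side: 45 genes had under 10 reads over the 4 KO-labelled libraries.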
